A study of Mus musculus with 22 samples.

Results

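Transcripts of 8 genes of the interleukin-1 (IL-1) family were followed in cells of FE1, a lung epithelial line derived from the transgenic MutaMouse, after exposure to the multi-walled carbon nanotube material Mitsui7. The 8 genes, of 20018 named genes on the array, were the ligands Il33, Il18, Il1a and Il1b, the antagonist Il1rn, the receptors Il1rl1 (ST2) and Il1r1, and the shared co-receptor Il1rap. They were found by matching the accession of each probe to its symbol, which gave 11 probes. Cells were exposed for 24 h to 0 (control, 5 arrays), 12.5 (low, 6 arrays), 25 (medium, 5 arrays) or 100 µg/ml (high, 6 arrays), in medium with fetal bovine serum and murine epidermal growth factor in every group. On each of the 22 arrays the RNA of 1 sample carried Cy5 and a commercial pool of RNA from 11 mouse cell lines carried Cy3, so each value is a log2 ratio of sample to pool. FE1 is a single line grown without other cells, and the methods give 3 separate exposure experiments without saying which arrays belong to which. With 5 or 6 arrays a group, some arrays of a group then share an experiment, so the p-values measure only the spread between these samples, which may be technical, and may be too small.

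As background, IL-33 and the IL-1 cytokines are released or processed when cells are damaged and act on neighbouring cells. IL-33 binds ST2, while IL-1 alpha and IL-1 beta both bind the IL-1 receptor. Either receptor then recruits IL1RAP, the co-receptor that they share, and signals through MyD88, IRAK kinases and NF-kB. IL-33 is stored in the nucleus of barrier cells, lung epithelium among them, and is counted among the alarmins. Its receptor ST2, the product of Il1rl1, exists as a membrane form that signals and as a soluble form that captures IL-33. IL-18 is made as a precursor that caspase-1 cleaves, and has a receptor pair of its own.

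Across the series, detected probes numbered 23688 to 39139 an array, and precision is limited by how many arrays each group had. The reference genes Hprt, Gapdh and Actb were not called at any dose. By limma, 1 of the 3 had an unadjusted p under 0.05 at the medium and at the high dose. Their largest changes were 0.63 for Actb at the low dose (SE 0.33), -0.42 for Gapdh at the medium dose and 0.39 for Hprt at the high dose. The response of each array was scaled over the 2442 probes called at the high dose, so that their mean high dose change is 1. Low dose replicate 1 stood at 0.85 against 0.53 to 0.73 for the other low dose arrays, and medium dose replicate 2 at 0.74 against 0.78 to 0.89. Without both arrays Il33 changed by -1.75, -2.03 and -3.12, Il1rl1 by 2.40, 2.61 and 2.63 and Il18 by -0.98, -1.08 and -1.35 from the lowest to the highest dose, all called by limma.

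The ligand Il33 and the receptor gene Il1rl1 moved in opposite directions at every dose. Il33 fell, with log2 changes of -1.97 (low), -2.20 (medium) and -3.14 (high), and Il1rl1 rose by 2.48, 2.54 and 2.64. Il18 and Il1r1 fell by less, and no change of the co-receptor Il1rap passed the test. Il1a, Il1b and Il1rn were at the background of the array in nearly all samples. Calls required a limma adjusted p of 0.05 or less over all 55681 probes, a change of 1.5-fold or more, and detection on 4 or more arrays of either group. Of the 8 genes, 5 had their brightest probe detected on all 22 arrays, and 4 of these 5 were called at each dose, 1 higher and 3 lower. Of all named genes detected in the same comparison, 5.18% were called at the low dose (2.24% higher, 2.94% lower). The share was 8.88% at the medium dose (4.24% higher, 4.65% lower) and 11.9% at the high dose (5.48% higher, 6.38% lower). The median change of the 5 detected members was -0.84, -0.80 and -1.21 at the 3 doses. For all detected named genes it was 0.0053, 0.0012 and 0.011. At each dose the median of the members was the value of Il1r1, while Il1rl1 rose. The members were chosen with earlier results of these data known, so these shares and medians are a description and not a test.

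**Figure D1:**
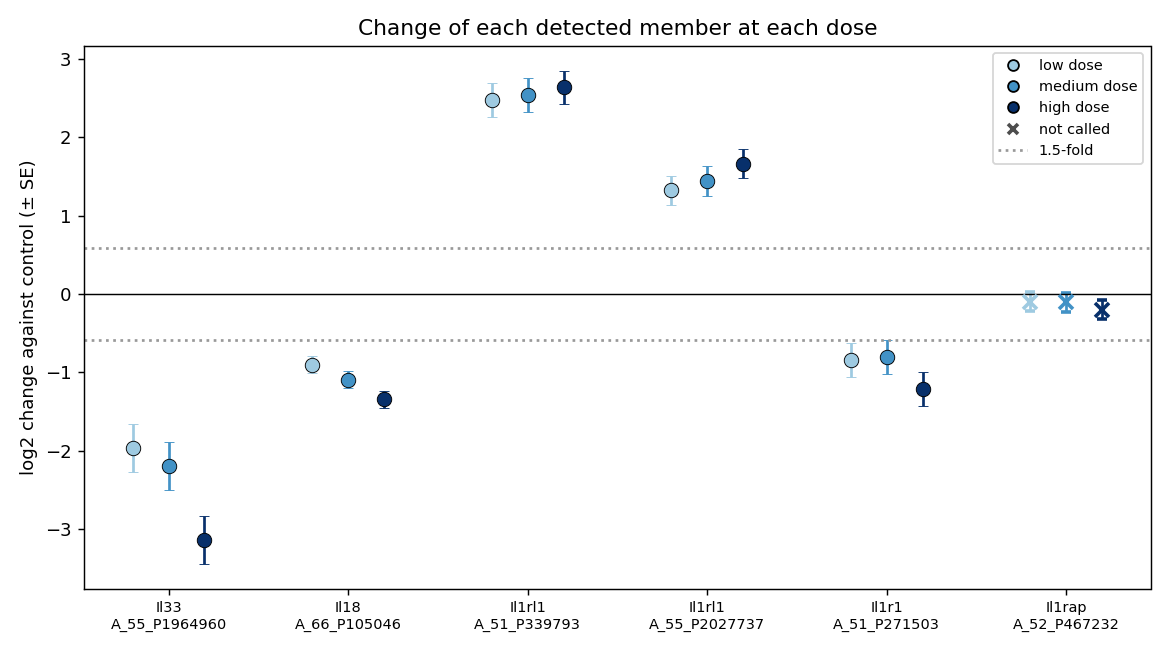
Log2 change against control (vertical axis, points with standard errors) of the brightest probe of the 5 detected members and of a further Il1rl1 probe, at the low, medium and high dose (colours). Both Il1rl1 probes lie above the dotted 1.5-fold line at every dose, Il33, Il18 and Il1r1 lie below it, and the crosses of Il1rap lie between -0.20 and -0.10.

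The sequence before each annotated start is printed for Il33 and Il1rl1, because these genes moved furthest and in opposite directions. The 250 bases come from RefSeq on GRCm38.p6 and lie on the plus strand. They were searched on both strands for 5 motifs, and capitals mark a match. GCGTG is the core of the xenobiotic response element, which the aryl hydrocarbon receptor binds. The antioxidant response element was searched as TGACNNNGC. GATA factors bind around GATAAG. The AP-1 motif was TGA and TCA with 1 free base between. The NF-kB motif was a run of GGG and a run of TTTCC with 2 free bases between. No matches overlapped each other. Whether either start is used in FE1 cells was not measured by the arrays.
Il33, upstream start, chr19:29924863-29925112: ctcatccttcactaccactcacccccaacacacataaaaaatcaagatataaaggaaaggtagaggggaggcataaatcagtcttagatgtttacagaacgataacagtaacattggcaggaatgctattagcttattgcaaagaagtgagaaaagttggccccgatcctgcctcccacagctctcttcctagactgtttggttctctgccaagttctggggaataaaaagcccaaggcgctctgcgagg
Il33, downstream start, chr19:29945540-29945789: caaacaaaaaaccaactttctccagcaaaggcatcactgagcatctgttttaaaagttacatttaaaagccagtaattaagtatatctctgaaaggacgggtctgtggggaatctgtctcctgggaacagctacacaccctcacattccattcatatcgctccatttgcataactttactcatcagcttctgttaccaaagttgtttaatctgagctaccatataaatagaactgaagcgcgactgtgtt
Il1rl1, upstream start, chr1:40429320-40429569: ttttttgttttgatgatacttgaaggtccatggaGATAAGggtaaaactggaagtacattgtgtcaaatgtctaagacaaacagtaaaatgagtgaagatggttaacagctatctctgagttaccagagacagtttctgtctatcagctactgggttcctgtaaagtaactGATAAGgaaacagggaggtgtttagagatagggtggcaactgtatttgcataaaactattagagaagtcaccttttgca
Il1rl1, downstream start, chr1:40439379-40439628: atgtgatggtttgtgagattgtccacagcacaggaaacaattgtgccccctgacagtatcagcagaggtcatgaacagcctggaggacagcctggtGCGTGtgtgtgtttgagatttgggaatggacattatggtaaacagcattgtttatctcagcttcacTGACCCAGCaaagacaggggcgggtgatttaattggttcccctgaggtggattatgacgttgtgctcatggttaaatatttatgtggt

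None of the 5 motifs was found in either Il33 window. The upstream Il1rl1 window held GATAAG at 216 and at 79 bases before the start, and the downstream window held GCGTG at 154 bases and TGACNNNGC at 88 bases before the start. Of 32851 windows of the same length, 6.55% held GATAAG, 28.2% held GCGTG, 10.2% held TGACNNNGC, 6.75% held the AP-1 motif and 1.41% the NF-kB motif. A match describes letters in a window and does not show that a factor binds there.

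Il33 was measured by probe A_55_P1964960 (NM_001164724), which was well above background on all 22 arrays. In control cells its log2 ratio was 1.75, 0.67, 0.86, 0.53 and 0.051. At the low dose it ran from -1.84 to -0.47 with a median of -1.21, at the medium dose it was -0.86, -1.77, -0.96, -1.5 and -2.05, and at the high dose it ran from -2.92 to -1.66 with a median of -2.29. No exposed array reached the lowest control array. Control arrays averaged 0.77 ± 0.62 (SD, n = 5). The low dose mean was -1.19 ± 0.59 (SD, n = 6), the medium dose mean -1.43 ± 0.51 (SD, n = 5) and the high dose mean -2.37 ± 0.47 (SD, n = 6). As the sample signal before normalization, the median Cy5 intensity was 1687 in controls and 203 at the high dose.

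In the fit across all probes, Il33 was 3.91-fold lower at the low dose (log2 change -1.97, SE 0.30, limma adjusted p = 0.000527), 4.59-fold lower at the medium dose (-2.20, SE 0.31, adjusted p = 0.000121) and 8.84-fold lower at the high dose (-3.14, SE 0.30, adjusted p = 6.78e-07). The arrays lay on 5 slides, of which 4 held control and exposed arrays, and Il33 was lower on each of these 4 slides at every dose. The difference within a slide ranged from -2.37 to -1.01 at the low dose, from -2.53 to -1.82 at the medium dose and from -3.49 to -2.19 at the high dose. The levels followed the order control, low, medium and high, but neighbouring doses were not told apart: medium against low differed by -0.23 (adjusted p = 0.938) and high against medium by -0.94 (adjusted p = 1). High against low differed by -1.18 (95% interval -1.77 to -0.59 before adjustment, adjusted p = 0.0905), with 5 of 6 high dose arrays below every low dose array after slide adjustment. Over the probes called at the high dose, low dose replicate 1 gave a response nearer to that of the higher doses than the other low dose arrays did. It also had the lowest slide-adjusted Il33 value of its group, so leaving it out widens the difference by construction, to -1.36 (adjusted p = 0.0270). Leaving out any other single array gave no call, and 36 of 38 alternatives gave none.

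**Figure D2:**
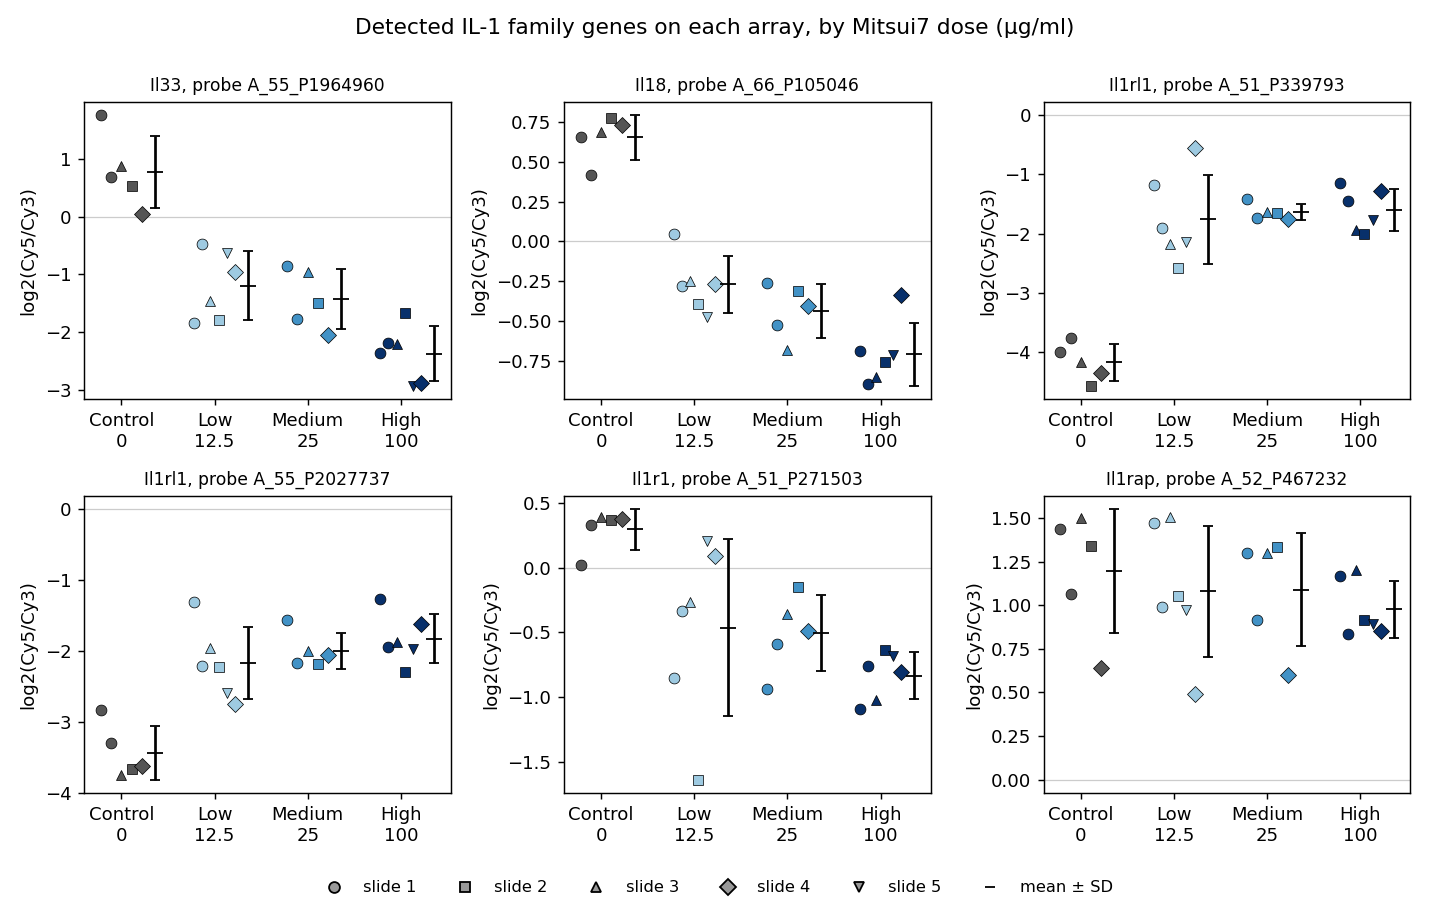
Log2 ratio of sample to reference pool (vertical axis) on each of the 22 arrays for 6 member probes, by dose, with a marker shape for each slide and the mean ± SD beside each group. Control and exposed arrays do not overlap for Il33, Il18 and both Il1rl1 probes, 2 low dose arrays lie among the controls for Il1r1, and all groups overlap for Il1rap.

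Fibroblast transcripts moved with Il33, as they did with Il18 and Il1r1. Of 6 markers of fibroblasts, all well above background on every array, 4 were called lower at the low dose and 5 at the medium and high dose. Col1a1, Col1a2 and Col3a1, which encode fibrillar collagen chains, changed by -1.34, -1.52 and -1.70 at the high dose, whereas Vim was not called at any dose. The summed normalised Cy5 intensity of the 6 markers ran from 306891 to 359679 in controls. It lay between 202724 and 257168 for low dose arrays, 188905 and 217604 for medium dose arrays, and 151376 and 201847 for high dose arrays. A sum mostly follows its brightest genes. In controls the median log2 Cy5 signal was 17.9 for Col1a2, against 9.74 for Pdgfra and 8.54 for Pdgfrb. Their part in the falls of these 3 genes was not tested, and in bulk RNA fewer cells of a kind and less RNA per cell cannot be told apart. Of 8 epithelial markers, the keratins Krt7 and Krt18 were well above background on all 22 arrays, Krt8 and Cldn7 on 21, Krt19 on 20 and Cldn4 on 5. Epcam and Cdh1, which define epithelium, had probes but were well above background on 0 arrays, as were the lung markers Sftpa1, Sftpb, Nkx2-1 and Foxj1. Krt7 was called lower at the medium dose (-0.79, adjusted p = 0.000242) and the high dose (-0.85, adjusted p = 4.82e-05) by limma, and no other epithelial marker was called at any dose. The summed intensity of the 8 markers overlapped between groups, at 1477 to 2744 in controls and 1603 to 2287 at the high dose. None of the 6 alveolar and airway markers and of the 4 endothelial markers was called at any dose, with 2 alveolar and airway markers, Sftpc and Scgb1a1, at an unadjusted p under 0.05 by limma at the medium and high dose.

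Il18 was measured by probe A_66_P105046 (NM_008360), well above background on all arrays. Its log2 ratio was 0.66, 0.42, 0.69, 0.78 and 0.73 in control cells. It ran from -0.47 to 0.048 with a median of -0.27 at the low dose, was -0.26, -0.53, -0.68, -0.31 and -0.41 at the medium dose, and ran from -0.90 to -0.34 with a median of -0.74 at the high dose. All exposed arrays lay below all control arrays. Il18 was 1.87-fold lower at the low dose (log2 change -0.90, SE 0.11, limma adjusted p = 4.45e-05), 2.13-fold lower at the medium dose (-1.09, SE 0.11, adjusted p = 3.68e-06) and 2.54-fold lower at the high dose (-1.34, SE 0.11, adjusted p = 8.84e-08). Within slides it was lower on 4 of 4 slides at each dose, with differences between -1.54 and -0.65. High against low differed by -0.44 (SE 0.10, adjusted p = 0.0791), with 6 of 6 high dose arrays below every low dose array after slide adjustment, and this difference was also under 1.5-fold.

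Il1a, Il1b and Il1rn, which encode the ligands of the IL-1 receptor and their antagonist, gave no sample signal to follow. The Cy5 intensity of Il1b (A_51_P212782, NM_008361, 10 spots an array) ran from 65.3 to 74.0 over all 22 arrays and was never above the detection level, which ranged from 74.3 to 119 between arrays. Il1a (A_52_P100926, NM_010554) was detected on 1 array, high dose replicate 1, at 156, and ran from 59.0 to 77.0 on the others. Il1rn (A_55_P1962400, NM_001039701) ran from 62.5 to 82.0 and was detected on 3 arrays, but was well above background on none. The reference pool gave a signal well above background on 17 arrays for Il1b, 13 for Il1rn and 1 for Il1a. No fold change is given for these 3 genes, and a change below the background of the array was not detectable.

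**Figure D3:**
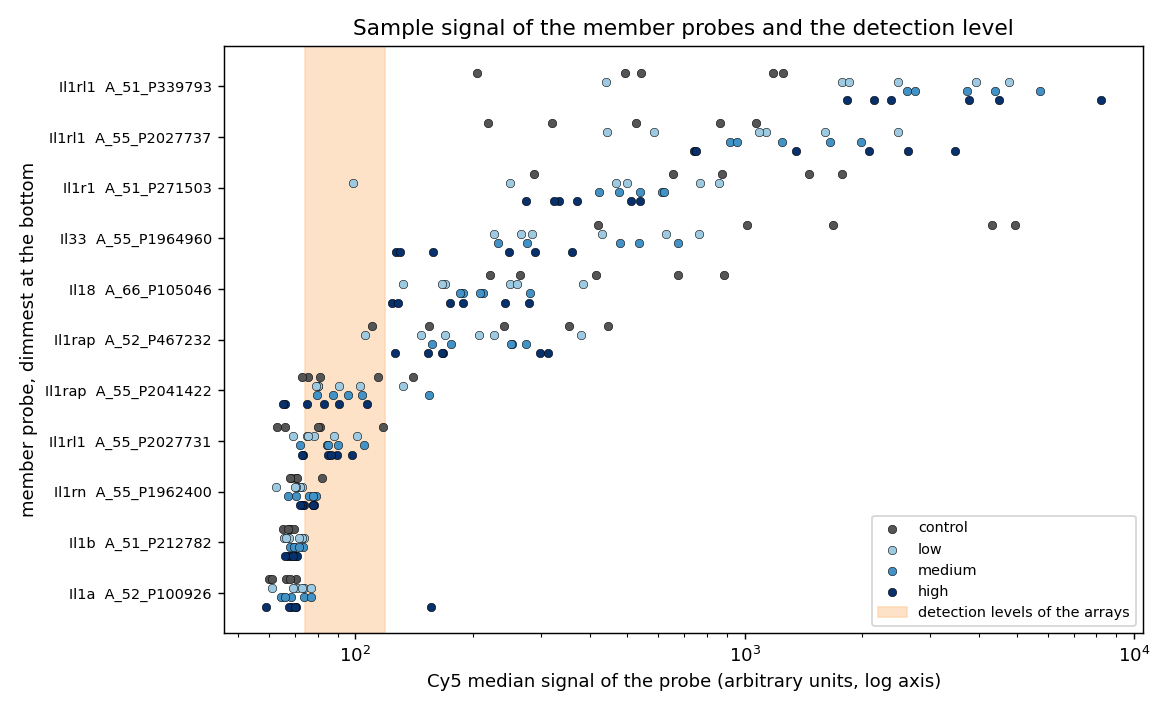
Cy5 intensity of the sample (horizontal log axis, arbitrary units) for each of the 11 member probes on each of 22 arrays, coloured by dose, with a band from the lowest to the highest detection level of the arrays. The 6 uppermost probes were detected on every array, while Il1b, Il1rn and all but 1 array of Il1a lie in or under the band.

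Il1rl1 had 3 probes, of which A_51_P339793 (NM_010743) was the brightest. In control cells its log2 ratio was -4.01, -3.77, -4.17, -4.57 and -4.37, far under the reference pool. It ran from -2.58 to -0.55 with a median of -2.03 at the low dose, was -1.42, -1.73, -1.63, -1.66 and -1.75 at the medium dose, and ran from -2.0 to -1.14 with a median of -1.61 at the high dose. Every exposed array lay above every control array. Il1rl1 was 5.56-fold higher at the low dose (log2 change 2.48, SE 0.22, limma adjusted p = 8.03e-07), 5.81-fold higher at the medium dose (2.54, SE 0.22, adjusted p = 4.53e-07) and 6.23-fold higher at the high dose (2.64, SE 0.22, adjusted p = 8.41e-08). Within slides it was higher on 4 of 4 slides at each dose, with differences between 1.99 and 3.82.

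No difference between doses passed the test for Il1rl1. High against low differed by 0.16 (95% interval -0.26 to 0.58, adjusted p = 0.896), medium against low by 0.063 (-0.39 to 0.51, adjusted p = 0.978) and high against medium by 0.10 (-0.35 to 0.55, adjusted p = 1). The control group was thus the only level set apart in these comparisons of Il1rl1. By limma, none of the 5 detected members was called between doses, with 2 of them (Il33 and Il18) at an unadjusted p under 0.05 for high against low, 2 for high against medium and 0 for medium against low. Of all detected named genes 0.449% were called between the high and the low dose, and 0% in the other pairs of doses.

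A further Il1rl1 probe, A_55_P2027737 (NM_001025602), rose as well, but by less. It was -2.83, -3.31, -3.76, -3.67 and -3.62 in control cells and had medians of -2.22 (low), -2.06 (medium) and -1.90 (high) after exposure. Its changes were 1.32 (SE 0.19, limma adjusted p = 0.000216), 1.44 (SE 0.19, adjusted p = 6.2e-05) and 1.67 (SE 0.19, adjusted p = 4.74e-06), again with no overlap of exposed and control arrays. The change of the brightest probe exceeded that of this probe by 1.15 at the low dose (exact permutation test over arrays, two-sided p = 0.0108, adjusted over 3 doses 0.0108). The excess was 1.10 at the medium dose (exact p = 0.00794, the smallest that 252 regroupings can give, adjusted 0.0108). At the high dose it was 0.97 (exact p = 0.00216, the smallest that 462 regroupings can give, adjusted 0.00648). The regroupings took arrays as exchangeable across slides and experiments, which they may not be, so these p-values may be too small. On low dose replicate 6 the probes disagreed most, the brightest at -0.55 being the highest and the other at -2.75 the lowest of the low dose arrays. Without that array the low dose difference was 0.80 (exact p = 0.00794). The remaining probe, A_55_P2027731, also matched to NM_001025602, was well above background on 1 of 22 arrays and its changes of 0.16, 0.077 and 0.14 were not called. The probe sequences and thus the form of ST2 that each probe reads were not available here, so the membrane and the soluble transcript are not assigned.

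Markers of mast cells and other leukocytes that bear ST2 were not called alongside Il1rl1. Of 6 such markers 0 were called by limma at any dose, and of the mast cell genes Kit and Mcpt4 were well above background on 0 arrays, Cpa3 on 2 and the tryptase gene Tpsb2 on 21. The summed normalised Cy5 intensity of the 6 ran from 807 to 3537 in controls, 708 to 980 at the low, 659 to 810 at the medium and 649 to 826 at the high dose. Such sums keep spots marked as outliers, which the fit leaves out. Without those spots, the mean slide-adjusted log2 ratio of the 6 overlapped between controls (-0.31 to -0.12) and the high dose (-0.38 to -0.26). Gata3, a transcription factor of type 2 lymphocytes that other cells express too, changed by -0.47 at the high dose (adjusted p = 0.0225), under 1.5-fold. Of 7 general leukocyte markers on the array 0 were called, and their sum overlapped between controls (11479.9 to 16835) and the high dose (10677 to 28237), although Cd14, Itgam, Cd3e and Cd4 were well above background on every array. That sum mostly follows Itgam, whose median log2 Cy5 signal in controls was 13.6, against 6.83 for Ptprc.

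Set against each other array by array, ligand and receptor separated controls from exposed cells without exception. After slide adjustment the control arrays had Il33 at 0.45 or more together with Il1rl1 at -3.99 or less, and every exposed array had Il33 at -0.56 or less together with Il1rl1 at -2.17 or more. Among exposed arrays Il33 reached its lowest values at the high dose, from -2.93 to -1.61, while Il1rl1 lay between -1.75 and -1.36 there, inside the range of -2.17 to -0.86 at the low dose. Low dose replicate 6 had the highest values among exposed arrays for Il33, at -0.56, and for the brightest Il1rl1 probe, at -0.86. The probe A_55_P2027737 of Il1rl1 disagreed on that array, where its slide-adjusted value of -2.59 was the lowest of the exposed arrays. The upper end of the low dose range of Il1rl1 thus rests on 1 reading, and the next highest low dose array was at -1.40. Control and exposed arrays formed separate clusters, so no correlation of Il33 with Il1rl1 over all arrays is given.

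**Figure D4:**
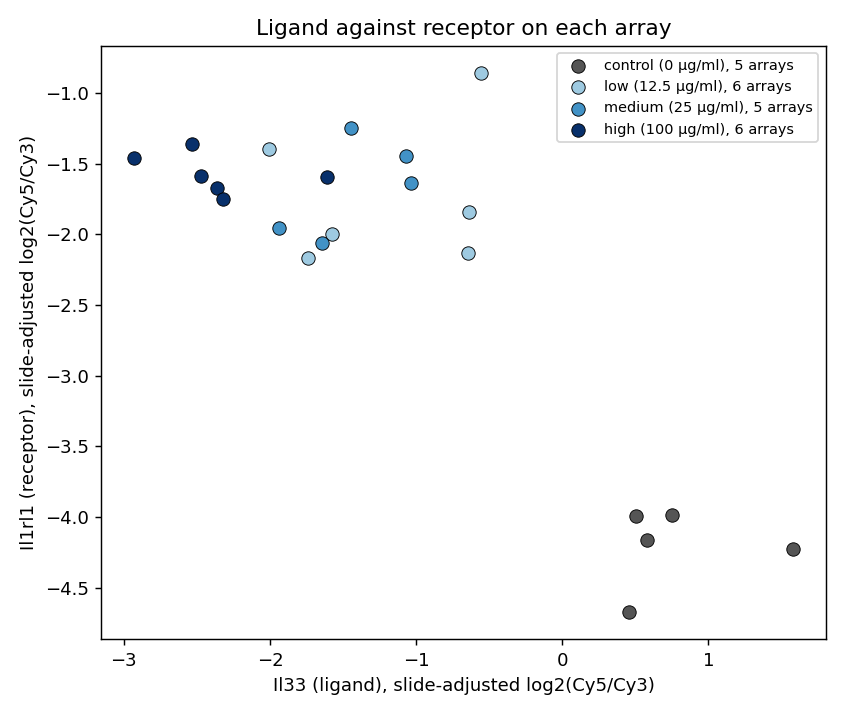
Il33 (horizontal axis) against the brightest Il1rl1 probe (vertical axis) on each of the 22 arrays, as slide-adjusted log2 ratios, coloured by dose. The 5 control arrays sit alone at the lower right, and the 6 high dose arrays sit at the left with Il1rl1 between -1.75 and -1.36.

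Il1r1, the signalling receptor of IL-1, fell at each dose, and the fall was firm at the high dose only. Its probe A_51_P271503 (NM_008362) was 0.019, 0.33, 0.39, 0.37 and 0.37 in control cells. It ran from -1.64 to 0.21 with a median of -0.30 at the low dose, was -0.94, -0.59, -0.36, -0.15 and -0.49 at the medium dose, and ran from -1.09 to -0.64 with a median of -0.78 at the high dose. Of the low dose arrays 2, at 0.21 and 0.092, lay above control replicate 1, while all medium and high dose arrays lay below all controls. The changes were -0.84 (SE 0.22, limma adjusted p = 0.0323), -0.80 (SE 0.22, adjusted p = 0.0356) and -1.21 (SE 0.22, adjusted p = 0.000768). The low dose call was lost without control replicate 2, 3 or 4 or low dose replicate 1 or 4, with changes from -0.85 to -0.55 and adjusted p from 0.0315 to 0.106, the change without low dose replicate 4 being under 1.5-fold. The medium dose call was lost without control replicate 2, 3 or 4 or medium dose replicate 1, 2, 3 or 5, with changes from -0.82 to -0.71 and adjusted p from 0.0546 to 0.112, and the high dose call was kept without any single array. Within slides Il1r1 was lower on 4 of 4 slides at every dose. High against low differed by -0.37 (adjusted p = 0.675), and by -0.64 (adjusted p = 0.0333) without low dose replicate 4, whose value of -1.64 was the lowest of all arrays. That value was the only one of 22 not well above background, with a Cy5 intensity of 98.5 against a detection level of 95.03 on its array.

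Il1rap, the co-receptor that pairs with both ST2 and the IL-1 receptor, kept within narrow bounds. Its brightest probe A_52_P467232 (NM_134103) was 1.44, 1.07, 1.5, 1.34 and 0.64 in controls, had a median of 1.02 (0.49 to 1.51) at the low dose and 0.90 (0.83 to 1.20) at the high dose, and was 1.30, 0.91, 1.30, 1.33 and 0.60 at the medium dose. The groups overlapped throughout. Changes were -0.10 (95% interval -0.35 to 0.16, limma adjusted p = 0.809), -0.11 (-0.37 to 0.15, adjusted p = 0.794) and -0.20 (-0.45 to 0.051, adjusted p = 0.446). A change of 1.5-fold lay outside these intervals, but they take arrays as independent and may be too narrow to exclude it. The Cy5 signal of the probe ran from 106 to 445 without background subtraction, against detection levels from 74.3 to 119, which also limits these changes. Its other probe, A_55_P2041422 (NM_008364), was well above background on 9 of 22 arrays, with changes of 0.029, -0.17 and -0.30, none called. The control means of ligand and receptor probes on the log2 scale are relative to the reference pool and do not order the genes by abundance.

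Around these genes 70 further genes of the pathway, listed by role, were read in the same fit, 69 of them on the array. At the low dose 5 of the 45 detected were called, 4 higher and 1 lower. At the medium dose 4 of 45 were called, 3 higher and 1 lower, and at the high dose 7 of 46, 4 higher and 3 lower. Of all detected named genes 5.18%, 8.88% and 11.9% were called at these doses, so the share at the medium dose was that of all genes. The other ligands and antagonists and the other receptors of the family were mostly below detection. Il18bp, the decoy that binds IL-18, was the only detected gene of 6 in the first list, with changes of -0.26, -0.28 and -0.34, and Il18rap and Sigirr were the only detected genes of 7 in the second. By limma, 0 genes of these lists were called, with Il18bp at an unadjusted p under 0.05 at each dose and 1 receptor at the low and at the medium dose. Il18rap, the accessory chain of the IL-18 receptor, changed by 0.33, 0.51 and 0.29. At the medium dose its limma adjusted p was 0.049, but the change was under 1.5-fold.

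Among 17 genes of cytokine processing and release, 14 were detected and 0 were called by limma at any dose, with 4 at an unadjusted p under 0.05 at each dose. Casp1, the caspase that cleaves the precursors of IL-1 beta and IL-18, changed by 0.27, 0.045 and 0.10. Nlrp3, an inflammasome sensor, changed by 0.064, 0.049 and 0.060. Both lay near the background of the array, which limits these changes. Casp1 was well above background on 2 of 5 control, 0 of 6 low dose, 0 of 5 medium dose and 2 of 6 high dose arrays. For Nlrp3 these counts were 2, 3, 4 and 3. The median change of the detected genes of this list was -0.19, -0.17 and -0.037.

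Of 19 signalling genes 18 were detected. By limma, 6 of them had an unadjusted p under 0.05 at the low dose, 3 at the medium and 9 at the high dose. Their median change was 0.022, 0.12 and 0.19 at these doses. Rela, the p65 subunit of NF-kB, was called higher at the low dose (0.59, SE 0.16, limma adjusted p = 0.0457) and the high dose (0.78, SE 0.16, adjusted p = 0.00282), and changed by 0.53 at the medium dose (adjusted p = 0.0687). Its low dose call stood in 6 of 38 alternative analyses and was lost without any one of 18 arrays, among them control replicates 2 to 5, with changes from 0.43 to 0.74 over the 38, whereas the high dose call stood in 36. Ikbkg, the regulatory subunit of the IkB kinase, had adjusted p-values of 0.0138, 0.000688 and 0.000332 but changed by 0.39, 0.53 and 0.53, under 1.5-fold. Myd88, the adaptor that links ST2 and the IL-1 receptor to the kinases, changed by 0.22, 0.10 and 0.23 and was not called.

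Genes that IL-1 or IL-33 signalling is known to induce were split. Of 21 listed, 10 were detected at the low and medium dose and 11 at the high dose. Mmp3, a matrix metalloproteinase, rose by 1.94, 2.07 and 1.77 (limma adjusted p = 3.15e-05, 1.09e-05 and 2.6e-05). Ptgs2, the inducible cyclooxygenase, rose by 1.43, 1.57 and 1.48 (adjusted p = 7.83e-05, 2.05e-05 and 1.56e-05), and Tnfaip3, the NF-kB inhibitor A20, by 0.79, 0.93 and 1.18 (adjusted p = 0.00867, 0.00155 and 6.64e-05). Vcam1, an adhesion molecule, was called lower at each dose with changes of -0.59, -0.62 and -0.77, and the low dose call was lost in 18 of 38 alternatives, with changes from -0.74 to -0.48, among them those without control replicates 2, 3 or 4, low dose replicates 1, 4 or 5 or high dose replicate 5. Its medium dose call was lost in 4 of 38, among them that without medium dose replicate 1. Tnfaip3 lost its low dose call in 3 and its medium dose call in 1 of the 38, none of them leaving out a single array, and Ptgs2 its low dose call in 1. The chemokines Ccl2 and Ccl7 were called lower at the high dose only, with changes of -1.0 (adjusted p = 0.0155) and -0.82 (adjusted p = 0.0284), against 0.064 and 0.040 at the low dose. The call of Ccl2 was lost without control replicate 1 or 2 or high dose replicate 3, and that of Ccl7 without control replicates 1 to 4 or high dose replicates 1 to 4, each left out singly, with changes from -1.24 to -0.59 and from -1.15 to -0.43 over the 38 alternatives. Il6 changed by 0.20, 0.055 and -0.092, and the Th2 cytokines Il4, Il5 and Il13 did not reach the detection rule, nor did Cxcl1, Cxcl2, Ccl20, Csf2, Csf3 or Icam1. Cxcl5 stood well above background in 3 of 5 controls and on 0 exposed arrays, and it also missed the separate rule of 4 detected arrays. The median change of the detected targets was 0.052, -0.11 and -0.092, and a list of this kind holds genes that other signals change too.

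**Figure D5:**
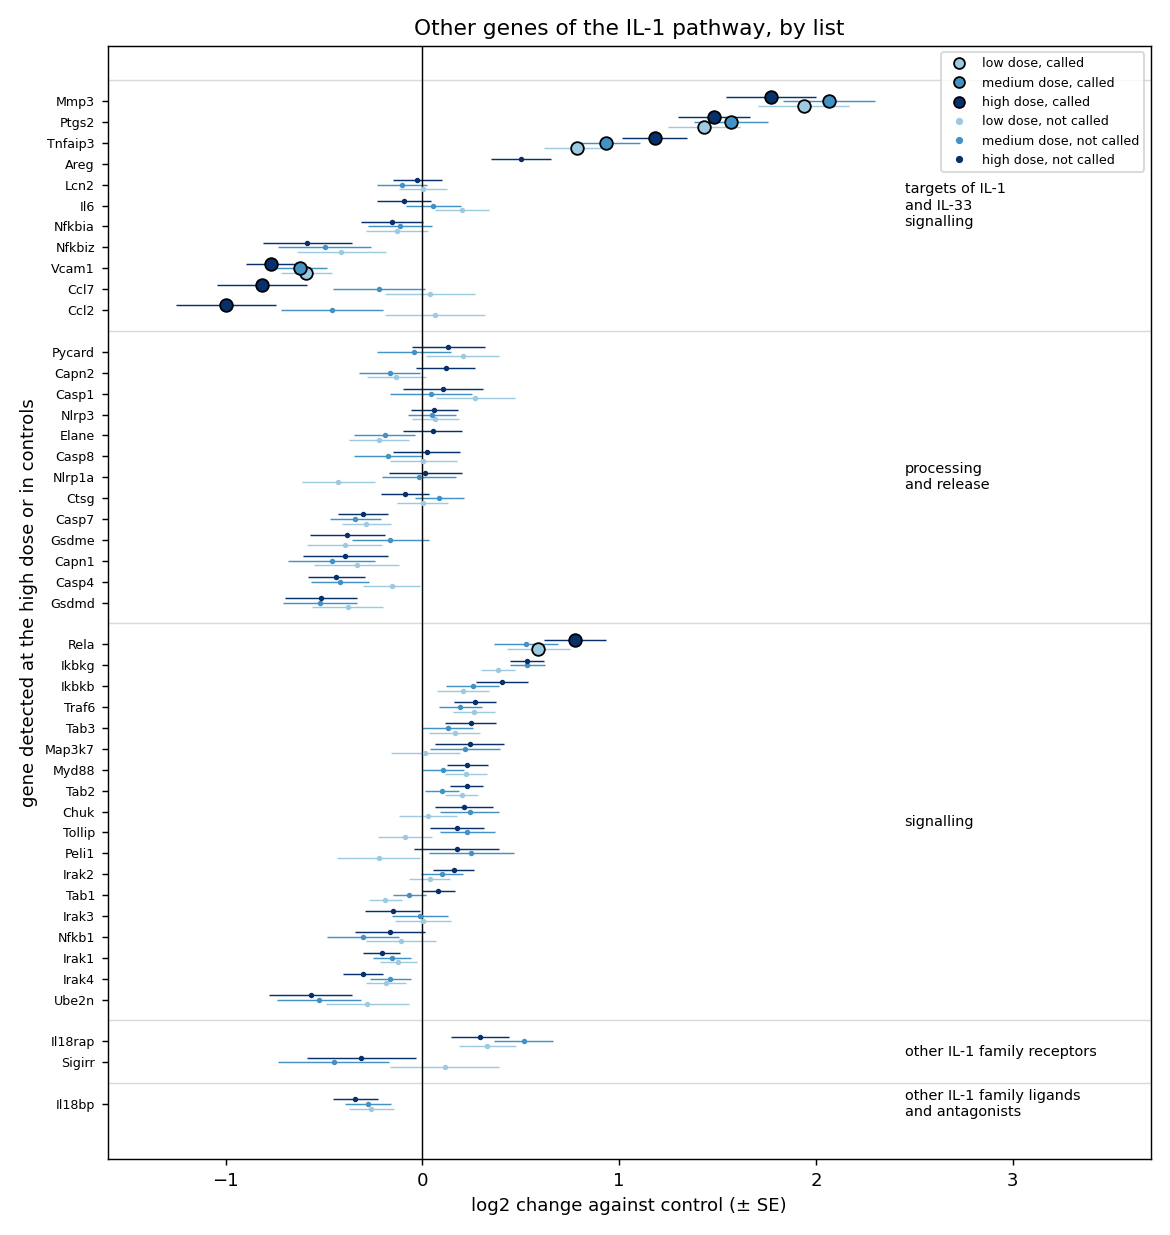
Log2 change against control (horizontal axis, points with standard errors) of the detected genes, 1 left out, of 5 pathway lists (rows) at the low, medium and high dose (colours), large outlined points being called. Mmp3, Ptgs2 and Tnfaip3 stand above 0.78 at all doses, Ccl2 and Ccl7 separate from 0 at the high dose, and no gene of the processing and release list is called.

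The genes whose slide-adjusted log2 ratios were most like those of Il33 and Il1rl1 over the 22 arrays were sought among 8941 named genes detected and measured on every array. For Il33 the closest included Trf (Pearson r = 0.976), Rcn3 (0.965), Prrx2 (0.960) and Mgp (0.958). All of these were called lower at each dose. Trf, which encodes transferrin, changed by -1.6, -2.10 and -2.73, and Mgp, the matrix Gla protein, by -2.38, -3.46 and -4.55. For Il1rl1 they were Prl2c5 (0.967), Prl2c1 (0.956), Nr4a2 (0.936), Dusp8 (0.935) and Ccl5 (0.933), all called higher at each dose. Prl2c5 and Prl2c1, of the proliferin family of near-identical genes whose probes may not be told apart, rose by 2.99 and 2.94 at the low dose and by 3.24 and 3.07 at the high dose. Like Il1rl1, all 5 reached most of their change at the low dose. The points share slides, a reference pool and the split of control and exposed arrays, so these coefficients are a description.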

How the data were processed

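FE1 cells exposed to Mitsui7 for 24 h were measured on 22 two-colour Agilent arrays (5 control, 6 low, 5 medium, 6 high), with the sample in Cy5 and the reference pool in Cy3, and no dye swap. Per the file headers the scans were read with Feature Extraction 10.7.3.1, and the methods name another version. The deposited files give median signal intensities per spot, the scanner software's log10 ratio and, in the series table, the authors' processed log2 values, whose normalization is not stated. Each of the 22 columns of that table correlated best with its own array (median r 0.984, lowest 0.846), and column medians ran from 0.0043 to 0.0267.

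As in the study's methods, median signals were used without background subtraction and the spots of a probe were reduced to their median. Loess normalization within each array and leaving out spots marked as outliers (0.40% to 6.22% an array) were choices made here. Log2 ratios were fitted in limma 3.58.1 (R 4.3.3) with group and slide over all arrays, with Benjamini-Hochberg adjustment over 55681 probes. limma's moderated test stands in for the study's permuted shrinkage F test. All comparisons with control share the same 5 control arrays. A probe counted as detected where its Cy5 signal exceeded the 5% trimmed mean of 308 negative control spots by 3 trimmed SDs. Well above background is the scanner software's own call. Slide-adjusted values have the fitted slide effect removed. Intervals cover 95% and are not adjusted for multiple tests. Like the p-values they take arrays as independent, so they may be too narrow.

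Symbols came from matching accessions to RefSeq (GRCm38.p6), which named 26413 probes and 20018 genes. A gene was read by its brightest probe, with its other probes beside it. All members were named, as were pathway genes called at any dose, and the 5 genes most like Il33 and Il1rl1 by Pearson correlation. Of the genes these rules name or plot, 2 are not reported here. Other listed genes are named after their values were seen. Members and lists were chosen with earlier results of these data known. The fit was tested on simulated data. Replicate numbers are shared between groups. The 31 same-numbered pairs of arrays, of which 27 shared a slide, deviated from their group means together (correlations 0.168 to 0.867 over 16349 probes), so a fit with the replicate number in place of the slide was an alternative. Other alternatives were median centring, normexp correction, the scanner ratio, the series table, outlier spots kept, the slide left out or random, only the compared groups, a 2-fold threshold, other probes, and leaving out each array or slide. No 2 arrays shared more than 2.40% of equal Cy5 signals.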

Additional observations from a re-analysis of the deposited data

Results flagged for a closer look

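Among 44 groups of arrays examined, 2 held an array that stood apart by Dixon's test, which chance gives in about 1 of 20 groups. Il1r1 was 0.019 in control replicate 1, against 0.33 to 0.39 in the other control arrays. Il18 was -0.34 in high dose replicate 6, against -0.90 to -0.69 in the other high dose arrays.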

How the results depend on the processing

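Over 38 alternative analyses at the 1.5-fold threshold, Il33, Il1rl1 and Il18 were called at every dose against control. Il33 ranged from -2.19 to -1.70, -2.40 to -1.98 and -3.55 to -2.79 at the low, medium and high dose, and Il1rl1 from 2.16 to 2.88, 2.38 to 2.69 and 2.43 to 2.88. The weak Il1rl1 probe A_55_P2027731 gave 0.16, 0.077 and 0.14. Il1r1 lost its call in 11 alternatives at the low dose, 14 at the medium dose and 1 at the high dose (scanner ratio, -1.28, adjusted p = 0.0686). Beside the arrays left out singly, it lost the low dose call with the scanner ratio (-1.12), no slide term (-0.76), only the groups compared (-0.89), and without slide 1 (-0.90), slide 3 (-0.88) or both low dose replicate 1 and medium dose replicate 2 (-0.79). It lost the medium dose call with the scanner ratio (-0.91), median centring (-0.75), no slide term (-0.80), and without slides 1 (-0.71), 3 (-0.82) or 4 (-0.79) or those 2 arrays (-0.80). The causes were not tested.

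With a 2-fold threshold, 2 members in place of 4 were called at the low dose, where Il18 and Il1r1 lost their calls, and 3 at the medium dose, where Il1r1 lost its call. With the scanner ratio 1 member, Il18, was called between the high and low dose (-0.70), and leaving out 1 array gave 0 to 1. The replicate block in place of the slide changed no member's call, and gave 3 pathway genes in place of 5 at the low dose. That count was also 3 with the scanner ratio, no slide term, a random slide block, the series table or without slides 2 or 5, was 2 at 2-fold, with only the groups compared or without slide 3, and was 1 with median centring. Leaving out 1 array gave 3 to 7. At the high dose the 7 pathway genes became 3 at 2-fold and 4 with median centring, and at the medium dose the 4 became 2 under both.

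Uncalled differences near 0 changed sign. For medium against low dose, Il1r1 was -0.044 with no slide term, -0.023 with normexp, -0.016 with a random block and -0.29 without slide 2 (-0.26 to 0.17 leaving out 1 array). Il1rap was 0.00814 with no slide term, 0.00113 with a random block, 0.055 and 0.033 without slides 1 and 3, and 0.12 without low dose replicate 1 and medium dose replicate 2 (-0.071 to 0.068). Il1rl1 was -0.20 with the scanner ratio, -0.084 by the weak probe, and -0.14 and -0.055 without slides 2 and 3 (-0.076 to 0.32). For high against medium dose, Il1rl1 was -0.044 with median centring, -0.11 with the replicate block and -0.014 and -0.016 without slides 1 and 4 (-0.031 to 0.24), and Il1rap 0.017 with the scanner ratio. For high against low dose the weak Il1rl1 probe gave -0.017, and against control at the low dose the weak Il1rap probe gave 0.029. Signals near the background limit Il1a, Il1b and Il1rn, and 5 or 6 arrays a group limit the rest.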
